A study of Ovis aries with 32 samples.

Results

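Glucocorticoid-induced genes were followed through the differentiation of perirenal preadipocytes from fetal sheep. The set was fixed by name as 10 genes, FKBP5, ZBTB16, TSC22D3, KLF9, KLF15, SGK1, GLUL, NR3C1, HSD11B1 and DUSP1, and each was looked up by its gene name among the 21271 genes and 35219 transcripts of the deposited table. The set, like the lists of other genes read below, was chosen with earlier results of these data known, so counts over it are a description. Of the 10 genes, 9 were found, with 16 transcripts, and TSC22D3 was not analysed here. RNA was sequenced from 32 libraries in 8 groups of 4. The preadipocytes came from male and female control fetuses (MC and FC) and from male and female growth-restricted fetuses (MFGR and FFGR), and MCD, FCD, MFGRD and FFGRD are the corresponding cells after differentiation to mature adipocytes. Growth restriction was brought about by heat: between gestational days 38 and 87 the ewes spent 12 h daily at 40°C and the remaining 12 h at 35°C, while pair-fed control ewes were held at 22°C. All fetuses were singletons of crossbred Columbia-Rambouillet ewes and were taken near term. The labels do not say whether the 4 libraries of a group came from 4 fetuses, so p-values measure the spread between these libraries. The composition of the differentiation medium, and whether it held a glucocorticoid, is not given in the sources used here.

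Glucocorticoids such as cortisol bind the glucocorticoid receptor, which is held in the cytoplasm by heat shock proteins and co-chaperones until the hormone arrives, and the bound receptor then acts in the nucleus as a transcription factor. The members have different places in this pathway. NR3C1 is the receptor itself, HSD11B1 regenerates active glucocorticoid inside the cell, FKBP5 is a co-chaperone that lowers the affinity of the receptor for hormone, and the others are genes that the receptor is known to induce in many cell types. Glucocorticoids are a classical component of media that turn cultured preadipocytes into adipocytes.

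Values are normalized read counts per gene, the sum of its transcripts, and fold changes, differentiated against preadipocyte, were computed from log2(value + 1). They were tested with limma on all genes that reached 10 in 4 or more libraries. A gene was said to have risen or fallen when its Benjamini-Hochberg adjusted p-value over all genes tested was below 0.05 and its fold change above 1.5. Levels are compared between libraries and groups for 1 gene at a time and not between genes, since they are not divided by length.

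The libraries hold approximately 7.78 to 21.35 M reads (median 13.46 M), and 1 read is worth a normalized value of 0.695 to 1.80. In 9 libraries (MFGR1, FC2, FFGR2, FFGR3, MCD2, MCD4, MFGRD1, FCD2 and FFGRD3) genes of long genomic span lay low against genes of short span. The span slope, the slope of the log2 deviation of a library on log2 genomic span, was below -0.1 in these libraries, down to -0.319, and reached up to 0.121 in the other libraries. They are named here because several members lie apart in them, and the change of most members over all groups is given with and without them. All 9 mature adipocyte markers (such as FABP4, ADIPOQ and PLIN1) rose with differentiation over all 32 libraries, beside 12.4% of all genes tested. One of them, PLIN4, was at most 5.31 in preadipocytes. It passed the low-value filter through differentiated libraries alone and could be called only as risen. Their summed value was 88.3 to 2043 in the preadipocyte libraries and 415.5 to 185500 in the differentiated libraries, and the value of 415.5 in FCD4 lies within the preadipocyte range. The kidney tubule markers were at or near 0, with a summed value of at most 2.97.

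Over all 32 libraries, 7 of the 9 members found rose with differentiation, HSD11B1 fell, and NR3C1 was not past the threshold. Among all 12737 genes tested in the same fit, 12.4% rose and 14.8% fell. The median log2 fold change of the 9 members was 1.998, and that of all genes tested was 0.04 (median absolute change 0.40). Without the libraries of low span slope, SGK1 and DUSP1 were not past the threshold and NR3C1 fell. ZBTB16 passed the low-value filter through its differentiated libraries alone, so among the 7 it could be called only as risen. The other members reached 10 in most libraries of both stages. In bulk samples such as these, fewer cells of a type and less RNA per cell cannot be told apart. The plot of member values by library shows FKBP5, ZBTB16 and GLUL fully separated between the stages, KLF9 and KLF15 separated in most libraries, and SGK1, DUSP1 and NR3C1 overlapping. How many of all genes are separated in this way was not counted, so the separation is a description.

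**Figure D1:**
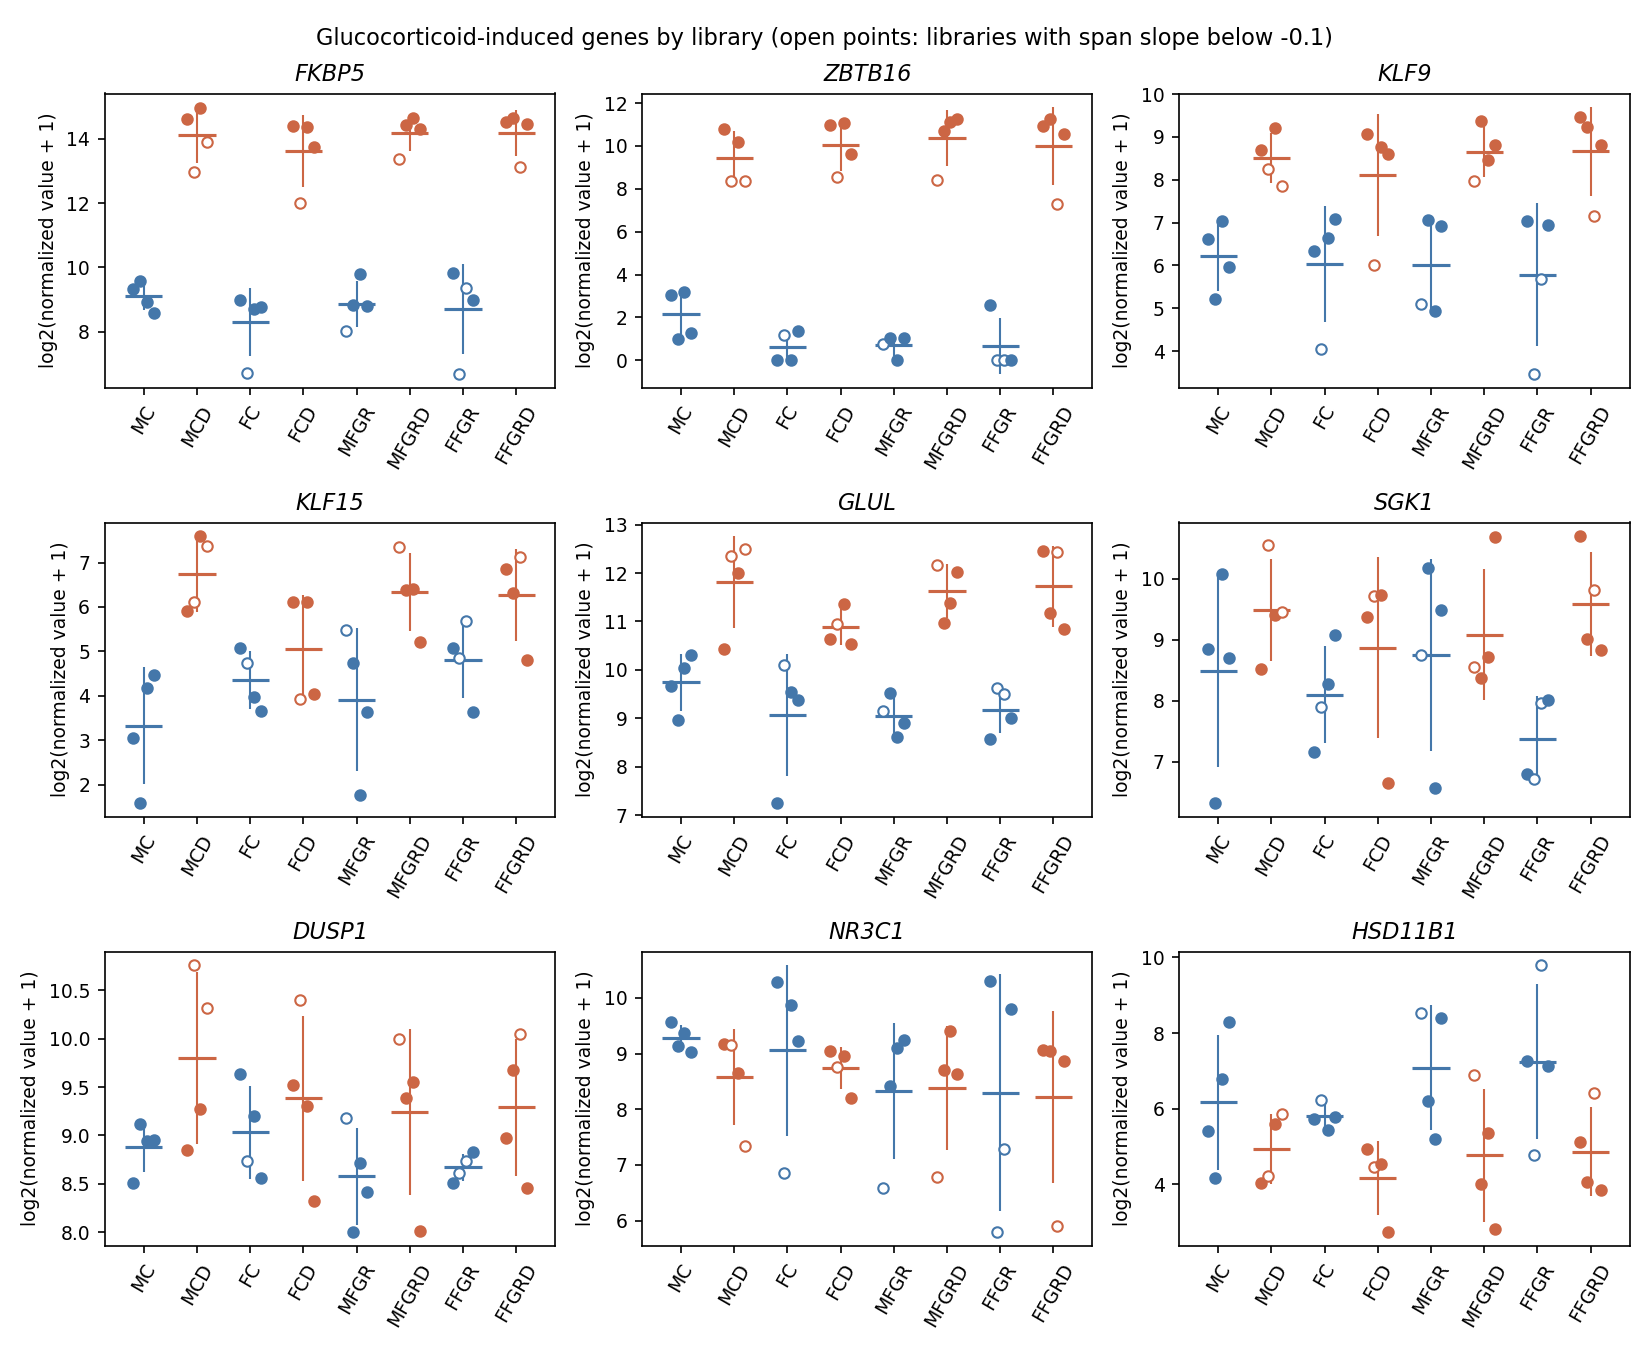
Each panel plots log2(normalized value + 1) of 1 member on the vertical axis against the 8 groups, with 1 point per library, the mean as a horizontal line and ±1 SD as a vertical line (n = 4). Blue marks preadipocytes, orange marks differentiated adipocytes, and open points are the 9 libraries with a span slope below -0.1. For FKBP5, ZBTB16 and GLUL all 16 differentiated libraries lie above all 16 preadipocyte libraries, which was not counted over all genes.

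FKBP5, the co-chaperone through which the receptor limits its own sensitivity, was 37.85 times as high on average after differentiation as before. In the preadipocytes its value was 646.9, 757.6, 486.4 and 383 in MC 1 to 4, and 504.6, 104.9, 417.3 and 435.9 in FC 1 to 4. It was 258.6, 456.9, 884 and 448.3 in MFGR 1 to 4, and 906.4, 101, 653.9 and 502.3 in FFGR 1 to 4. The 2 lowest values, in FC2 and FFGR2, belong to libraries of low span slope. After differentiation it was 25440, 8023, 31700 and 15480 in MCD, and 21480, 4118, 21300 and 13800 in FCD. It was 10620, 22270, 25940 and 20120 in MFGRD, and 23450, 25520, 8999 and 22600 in FFGRD. The lowest differentiated value, 4118 in FCD2, was still above the highest preadipocyte value, 906.4 in FFGR1. The log2 fold change was 5.29 (SE 0.31, limma adjusted p = 2.86e-12), a 39.1-fold rise with a 95% confidence interval of 25.2 to 60.8. The order of the group means was MCD, FFGRD, MFGRD, FCD, MC, FFGR, MFGR and FC, and neighbours in this order overlapped in their ranges except FCD and MC, where the stages meet.

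FKBP5 lies on chromosome 20 (chr20:11254529-11324058, Oar_rambouillet_v1.0) with 2 transcripts in the table. FKBP5-201 held 74.94% of the summed value and FKBP5-202 the other 25.06%. Both rose, with log2 fold changes of 5.27 (SE 0.31) for FKBP5-201 and 5.37 (SE 0.35) for FKBP5-202. The difference between the transcripts was not tested. In the fit of single transcripts, 9.02% of 19469 transcripts rose.

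ZBTB16, a zinc finger transcription factor also called PLZF, went from at most 8.19 in preadipocytes to between 156.9 and 2420 in differentiated adipocytes. In MC 1 to 4 its value was 7.35, 1.02, 8.19 and 1.44, or about 6, 1, 8 and 1 reads. In FC it was 0, 1.27, 0 and 1.54, in MFGR 0.698, 1.09, 0 and 1.06, and in FFGR 5.08, 0, 0 and 0. Of the 16 preadipocyte libraries, 13 held no more than 3 reads and 6 were at 0, which is not evidence that the gene was silent. After differentiation the values were 1776, 328, 1160 and 333.4 in MCD and 1993, 371.1, 2164 and 778.7 in FCD. They were 342.7, 1688, 2201 and 2410 in MFGRD and 1943, 2420, 156.9 and 1487 in FFGRD. Every differentiated library lay above every preadipocyte library, and MC was the only preadipocyte group with more than 1 library above 3 reads. With each preadipocyte library taken at 3 reads, ZBTB16 was at least 249-fold higher in FCD than in FC and at least 331-fold higher in MFGRD than in MFGR. The fitted log2 change over all groups was 8.93 (SE 0.41, limma adjusted p = 1.57e-14). Its size depends on the pseudocount and became 10.56 with a pseudocount of 0.1. In MC, where 2 libraries were above 3 reads, the fitted log2 change was 7.29 (SE 0.72). ZBTB16 has 1 transcript in the table, at chr15:27130991-27329387.

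The members with the largest genomic spans were ZBTB16 (198 kb), NR3C1 (114 kb), SGK1 (110 kb) and FKBP5 (69.5 kb), whereas DUSP1 spans 2.23 kb. In the 5 differentiated libraries of low span slope ZBTB16 was 156.9 to 371.1 (median 333.4), below all 11 other differentiated libraries (778.7 to 2420, median 1943). FKBP5 was 4118 to 15480 in those 5 libraries (median 8999) and 13800 to 31700 in the other 11 (median 22600), which overlap by 1 library of each kind. DUSP1 went the other way, with 1025 to 1739 in the 5 libraries and 257.2 to 816.6 in the other 11. In preadipocytes NR3C1 was 54.3 to 155.3 in the 4 libraries of low span slope and 340 to 1256 in the other 12. Without the 9 libraries the rise of FKBP5 was 5.38 (SE 0.15) and that of ZBTB16 9.59 (SE 0.35) on the log2 scale, so both were as large without them.

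**Figure D2:**
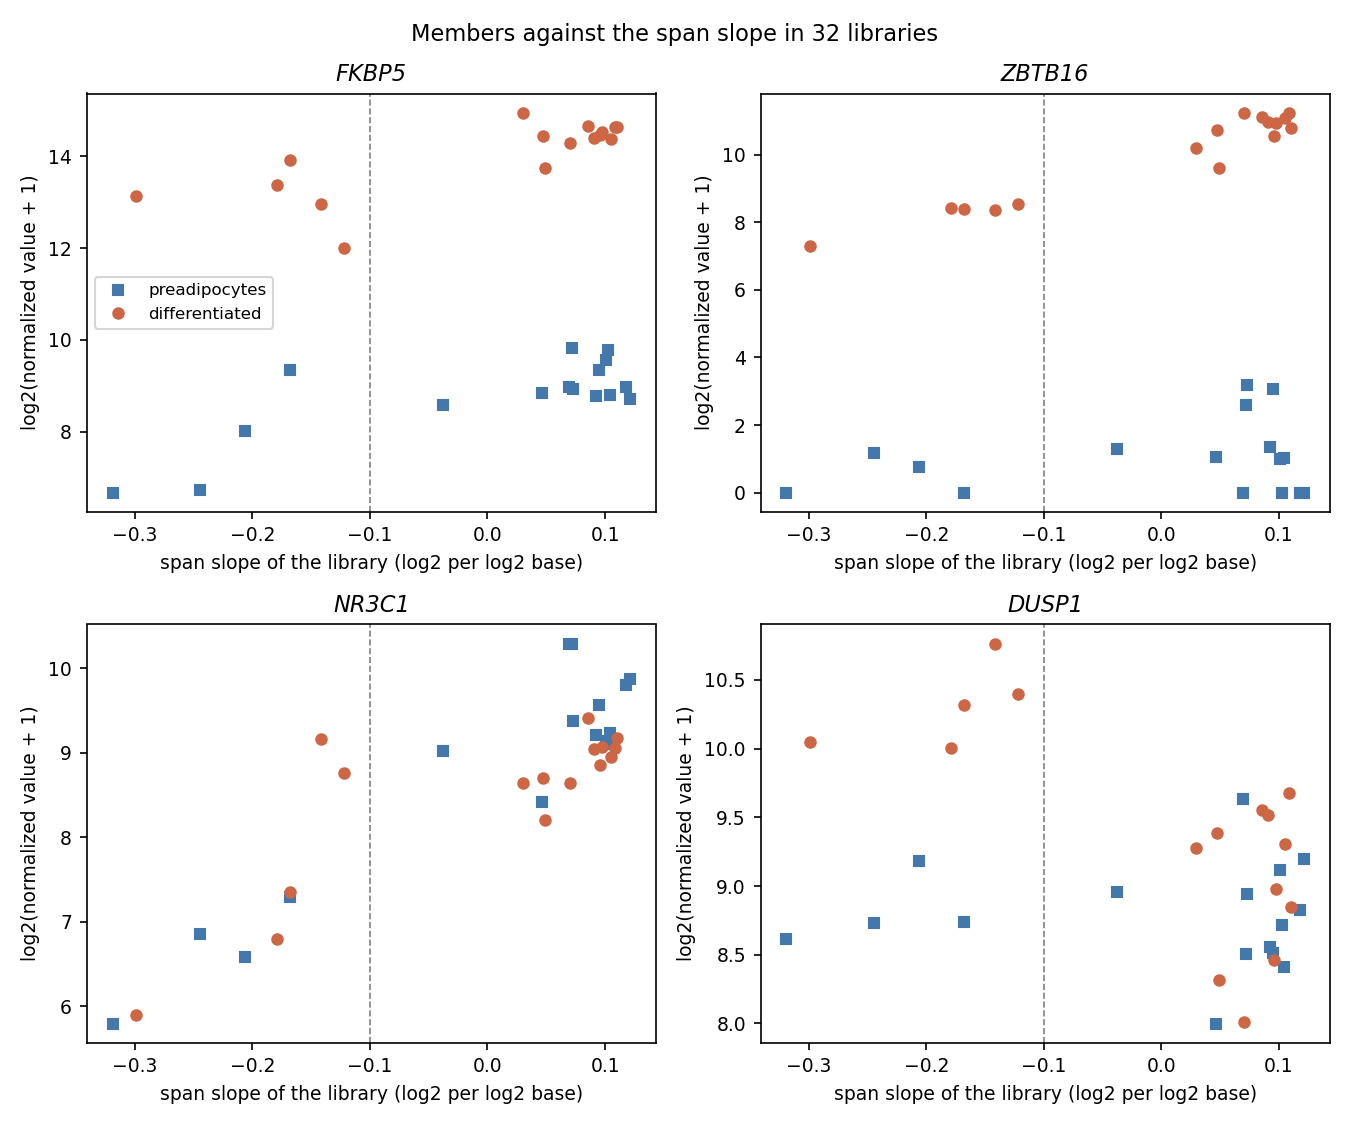
Each panel plots log2(normalized value + 1) of 1 member against the span slope of the library, in log2 units per doubling of genomic span, for 16 preadipocyte libraries (squares) and 16 differentiated libraries (circles). The dashed line marks a slope of -0.1. To its left ZBTB16 lies low and DUSP1 high in differentiated libraries and NR3C1 lies low in preadipocytes, and the stages stay apart for FKBP5 and ZBTB16 on both sides.

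KLF9 and KLF15, Krüppel-like transcription factors that are direct targets of the receptor and act in adipocyte differentiation, both rose. KLF9 (chr2:71284569-71308537) was 97.47, 36.25, 130.9 and 61.3 in MC, 80.02, 15.48, 98.34 and 133.6 in FC, 33.15, 131.8, 29.83 and 120.3 in MFGR and 130.5, 9.99, 50.73 and 121.5 in FFGR. It was 416.2, 301.4, 587.2 and 231 in MCD, 537.8, 62.99, 435.7 and 386.9 in FCD, 249.6, 665.8, 351 and 448.3 in MFGRD and 701.9, 596.9, 142.2 and 449.8 in FFGRD. Of the 16 differentiated libraries, 15 were above the highest preadipocyte library, and FCD2 was not. The log2 fold change was 2.48 (SE 0.38, limma adjusted p = 1.15e-05), or 5.57-fold (95% confidence interval 3.23 to 9.62). KLF9 was 62.99 to 301.4 in the 5 differentiated libraries of low span slope and 351 to 701.9 in the other 11, and its log2 change without the low-slope libraries of both stages was 2.41 (SE 0.25).

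KLF15 (chr19:62564870-62571958) was a low gene. Its values were 7.33, 2, 17.23 and 21.3 in MC, 32.86, 25.59, 14.86 and 11.63 in FC, 43.77, 25.8, 2.44 and 11.49 in MFGR and 32.7, 28.09, 50.18 and 11.5 in FFGR. They were 58.8, 68.59, 191.7 and 163.4 in MCD, 67.81, 14.36, 68.45 and 15.6 in FCD, 162.9, 82.07, 83.94 and 36.25 in MFGRD and 114.5, 78.47, 139.3 and 27.09 in FFGRD. The stages did not overlap in male controls, and 12 of all 16 differentiated libraries were above the highest preadipocyte library. The log2 fold change over all groups was 1.998 (SE 0.37, limma adjusted p = 0.000131), which is 4.00-fold (95% confidence interval 2.35 to 6.80). MC2 and MFGR3 held about 2 reads each of KLF15.

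GLUL, glutamine synthetase, is induced by glucocorticoids in muscle and adipose cells and makes glutamine from glutamate and ammonia. Its value (chr12:68045811-68054747) was 809.3, 495.4, 1057 and 1259 in MC, 150.7, 1099, 746.5 and 667 in FC, 563.9, 735.6, 392.1 and 476.3 in MFGR and 377.7, 793.6, 721.6 and 516.3 in FFGR. It was 1382, 5256, 4093 and 5750 in MCD, 1604, 1976, 2648 and 1493 in FCD, 4570, 2000, 2684 and 4180 in MFGRD and 5640, 2299, 5514 and 1836 in FFGRD. All 16 differentiated libraries were above all 16 preadipocyte libraries, by a small margin between MC4 at 1259 and MCD1 at 1382. The log2 fold change was 2.26 (SE 0.25, limma adjusted p = 9.87e-08), or 4.78-fold (95% confidence interval 3.33 to 6.85). In differentiated cells the median of GLUL was 5256 in the libraries of low span slope and 2299 in the others, with overlapping ranges, and its log2 change without the low-slope libraries of both stages was 2.19 (SE 0.30).

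SGK1, a serum- and glucocorticoid-regulated kinase, rose over all groups by 1.08 on the log2 scale (SE 0.39, limma adjusted p = 0.034), or 2.12-fold (95% confidence interval 1.21 to 3.70). Its libraries overlapped widely. In preadipocytes SGK1 ranged from 78.63 to 1080 in MC, 141.3 to 537.2 in FC, 93.43 to 1162 in MFGR and 103.5 to 255.5 in FFGR. After differentiation it ranged from 364.6 to 1510 in MCD, 99.71 to 846.2 in FCD, 331.1 to 1647 in MFGRD and 456.2 to 1667 in FFGRD. The stages were separate in female growth-restricted cells alone, and 3 of all 16 differentiated libraries were above the highest preadipocyte library. The call was lost on leaving out any 1 of 11 libraries (MC2, MCD2, MFGR3, MFGRD4, FC1, FCD1, FCD2, FCD3, FFGR1, FFGR2 or FFGRD1), with adjusted p-values of 0.0506 to 0.0631 and log2 changes of 0.90 to 1.04. It was also lost without the 9 libraries of low span slope (0.88, SE 0.54, adjusted p = 0.20) and with the highest transcript in place of the sum (1.05, SE 0.42, adjusted p = 0.0605).

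SGK1 lies at chr8:65605580-65715728 with 6 transcripts in the table. SGK1-204 held 74.5% of the summed value and SGK1-202 15.3%. SGK1-206 was above 0 in 1 library. No transcript of SGK1 was past the threshold on its own, and SGK1-204 had a log2 change of 1.05 (SE 0.42, limma adjusted p = 0.0764).

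DUSP1, a phosphatase that switches off MAP kinases and is part of the anti-inflammatory action of glucocorticoids, rose by 0.64 on the log2 scale (SE 0.22, limma adjusted p = 0.0274), or 1.56-fold (95% confidence interval 1.13 to 2.14). Its values (chr16:4821501-4823729) were 364.1, 552.9, 491.4 and 495.3 in MC, 793.8, 424.9, 586.3 and 375.3 in FC, 578.7, 254.5, 420 and 339 in MFGR and 361.8, 390.6, 426.2 and 451.9 in FFGR. They were 460, 1739, 619.6 and 1278 in MCD, 731.8, 1348, 631.8 and 317.8 in FCD, 1025, 666.5, 751.8 and 257.2 in MFGRD and 503.2, 816.6, 1057 and 350.8 in FFGRD. The stages overlapped in every group, and the 5 highest values of all were those of the differentiated libraries of low span slope. Without the 9 libraries of low span slope the change was 0.27 (SE 0.21, adjusted p = 0.32). The call was also lost without MCD2, MFGRD1, FCD2 or FFGRD3 alone, where the log2 change was 0.56 to 0.58 (adjusted p 0.0453 to 0.0505) and so under 1.5-fold.

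NR3C1, the glucocorticoid receptor, was not past the threshold (log2 change -0.26, SE 0.43, limma adjusted p = 0.70, 95% confidence interval -1.14 to 0.62). The interval reaches from 0.455 times to 1.53 times the preadipocyte level. NR3C1 (chr5:56692443-56806054) ranged from 518.3 to 755.4 in MC, 114.6 to 1252 in FC, 94.83 to 602.2 in MFGR and 54.32 to 1256 in FFGR. It ranged from 161.9 to 578.2 in MCD, 293 to 527 in FCD, 109.6 to 679.4 in MFGRD and 58.62 to 536.8 in FFGRD. The low end in FC, MFGR, FFGR, MCD, MFGRD and FFGRD was in each case a library of low span slope. Without the 9 libraries NR3C1 fell by 0.62 on the log2 scale (SE 0.16, adjusted p = 0.00446), and with the span slope as a covariate its change was -0.24 (SE 0.19, adjusted p = 0.30). Of its 2 transcripts, NR3C1-202 held 69.29% of the sum (log2 change -0.17, SE 0.48) and NR3C1-201 the remaining 30.71% (-0.42, SE 0.47).

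HSD11B1, the enzyme that turns inactive cortisone into cortisol in liver and fat, fell by 1.89 on the log2 scale (SE 0.48, limma adjusted p = 0.0032), to 0.27 times the preadipocyte level (95% confidence interval 0.136 to 0.538). Its values (chr12:77036859-77074887) were 41.57, 17.09, 108.7 and 314.6 in MC, 52.09, 74.13, 42.64 and 54.22 in FC, 371.3, 73.26, 35.55 and 335.1 in MFGR and 151.9, 26.63, 893.5 and 138.4 in FFGR. They were 15.57, 17.54, 47.78 and 56.86 in MCD, 29.68, 21.11, 22.49 and 5.66 in FCD, 117.5, 15.08, 40.38 and 6.04 in MFGRD and 33.53, 15.66, 84.85 and 13.52 in FFGRD. The stages were separate in female controls, and 6 of all 16 differentiated libraries were below every preadipocyte library. The fall was -2.07 (SE 0.49) without the libraries of low span slope. It kept its call on leaving out each of the 32 libraries, with log2 changes of -2.09 to -1.68.

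The response was then read in each group of fetuses on its own 8 libraries. In each group ZBTB16 passed the filter through differentiated libraries alone, so it is counted below but could be called only as risen. In male controls 5 of the 9 members rose (FKBP5, ZBTB16, KLF9, KLF15 and GLUL), against 3.33% of all genes tested. In female controls 2 rose (FKBP5 and ZBTB16), against 0.181% of all genes. In growth-restricted males 4 rose (FKBP5, ZBTB16, KLF9 and GLUL), against 1.22%. In growth-restricted females 3 rose (FKBP5, ZBTB16 and GLUL), against 0.914%. No member fell past the threshold in any of the 4 groups, where HSD11B1 had log2 changes of -1.24 to -2.38 and limma adjusted p-values of 0.241 to 0.391. Among all genes 488 of 11605 fell in MC, 29 of 11634 in FC, 251 of 11624 in MFGR and 204 of 11599 in FFGR. With 9 members such shares leave few or none to be expected, so the absence is a description. The numbers called do not compare the groups, since the share of all genes called differs as widely between them.

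The response of FKBP5 in the 4 groups had log2 fold changes of 5.01 (SE 0.43) in MC, 5.34 (SE 0.66) in FC, 5.33 (SE 0.43) in MFGR and 5.48 (SE 0.70) in FFGR. ZBTB16 had 7.29 (SE 0.72), 9.41 (SE 0.65), 9.65 (SE 0.64) and 9.35 (SE 0.99), with the lowest value in MC. MC held the most reads of ZBTB16 before differentiation. MCD had the lowest mean after it (899.3, against 1327 in FCD, 1502 in FFGRD and 1660 in MFGRD), and MCD2 and MCD4 have a low span slope. GLUL had 2.08 (SE 0.48), 1.81 (SE 0.57), 2.59 (SE 0.34) and 2.55 (SE 0.47). KLF9 had 2.29 (SE 0.45), 2.09 (SE 0.83), 2.65 (SE 0.57) and 2.88 (SE 0.86). KLF15 ranged more widely, with 3.42 (SE 0.69) in MC, 0.69 (SE 0.66) in FC, 2.43 (SE 0.80) in MFGR and 1.46 (SE 0.64) in FFGR. SGK1 had 1.00 (SE 0.72), 0.77 (SE 0.71), 0.34 (SE 0.81) and 2.22 (SE 0.52), and DUSP1 had 0.92 (SE 0.41), 0.35 (SE 0.45), 0.66 (SE 0.45) and 0.62 (SE 0.38). NR3C1 had -0.69 (SE 0.40), -0.32 (SE 0.67), 0.05 (SE 0.71) and -0.07 (SE 1.12).

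**Figure D3:**
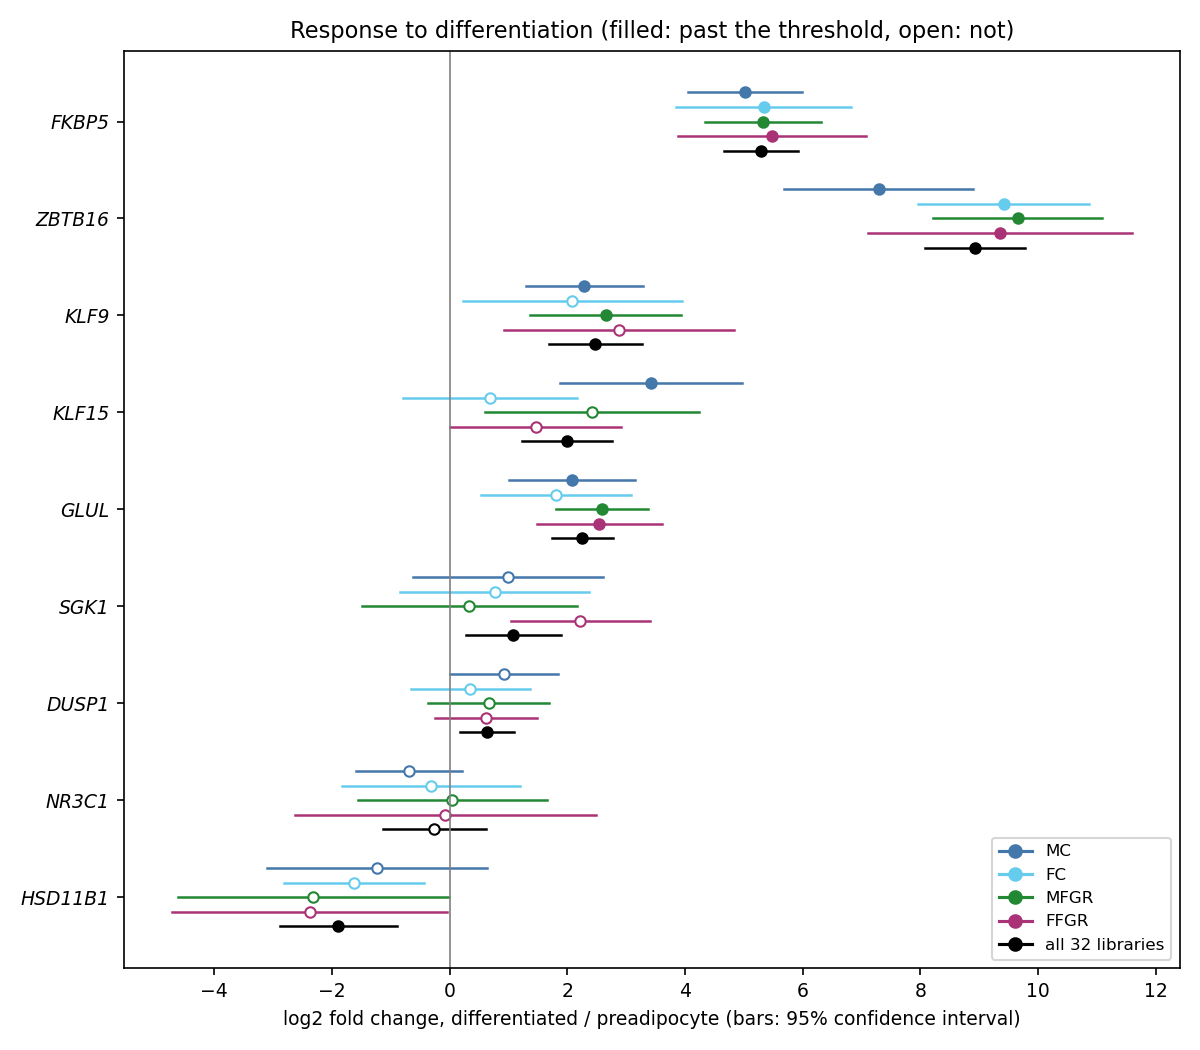
The horizontal axis gives the log2 fold change of each member, differentiated against preadipocyte, in MC, FC, MFGR and FFGR (8 libraries each) and over all 32 libraries, with bars for the 95% confidence interval. Filled points are past the threshold. FKBP5 and ZBTB16 are filled in all 4 groups, and the intervals of the 4 groups overlap for each member.

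With 4 libraries a side, several of these calls were lost on leaving out 1 library, while the fold changes stayed close to those given above. FKBP5 in FC lost its call without FC1, FC3, FC4, FCD1 or FCD3 (log2 change 5.08 to 5.56, adjusted p 0.0574 to 0.0966) and in FFGR without FFGRD2 (0.062), although the stages did not overlap in any group. KLF9 in MFGR lost it without any 1 of the 8 libraries (log2 change 2.30 to 3.00, adjusted p 0.0553 to 0.151), and in MC without MCD3 (0.0586). GLUL in FFGR lost it without any library but FFGRD4 (log2 change 2.30 to 2.73, adjusted p 0.052 to 0.116), and in MC without MC1, MC2, MC3, MCD2, MCD3 or MCD4 (0.0706 to 0.0924). KLF15 in MC lost it without MC1, MCD3 or MCD4 (0.0561 to 0.0712). ZBTB16 was called without each preadipocyte library and was not tested without a differentiated one, since 3 libraries then reach the filter. With the replicate number as a block, KLF9 in FC was past the threshold (adjusted p = 0.0395), as was KLF15 in MFGR (adjusted p = 0.0344). The block also raised the number of all genes called, from 874 to 1854 in MC, from 50 to 197 in FC and from 393 to 2081 in MFGR, the groups where the numbers were read as pairs.

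Whether growth restriction or sex changes the response was tested directly. No member was past the threshold in the difference between the growth-restricted and control responses, in the difference between male and female responses, or when the MFGR response was set against that of the remaining groups. Among all 12737 genes none was called in any of these 3 contrasts (0.0%), while 132, 116 and 74 genes had an unadjusted p below 0.05. For FKBP5 the response in growth-restricted cells differed from that in controls by 0.23 on the log2 scale (SE 0.62, 95% confidence interval -1.038 to 1.501, limma adjusted p = 0.99). The response of FKBP5 in MFGR differed from that of the other groups by 0.05 (SE 0.71, interval -1.41 to 1.52). For GLUL the difference between growth-restricted and control responses was 0.63 (SE 0.51, interval -0.41 to 1.66), and for HSD11B1 it was -0.92 (SE 0.97, interval -2.90 to 1.07). These intervals are wide, so similar responses are not shown either.

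The response of KLF15 was also compared between the sexes. The male response exceeded the female one by 1.85 on the log2 scale (SE 0.75, 95% confidence interval 0.31 to 3.38). Its unadjusted p in the limma fit was 0.0203 and its adjusted p 0.911, so it failed the correction. It was the only 1 of the 9 members with an unadjusted p below 0.05 in these 3 contrasts. In both growth classes the male response of KLF15 was the larger one (3.42 against 0.69 in controls, 2.43 against 1.46 in growth-restricted cells). Each male response includes a preadipocyte library with about 2 reads of KLF15, MC2 in controls and MFGR3 in growth-restricted cells. The male mean was lower before differentiation (11.97 in MC and 20.88 in MFGR, against 21.23 in FC and 30.62 in FFGR) and higher after it (120.6 and 91.3, against 41.56 and 89.83).

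At each stage alone no member was past the threshold for growth restriction or for sex. None of all 12138 genes tested in preadipocytes and none of 12069 tested in differentiated adipocytes was called for either factor (0.0%). Unadjusted p-values below 0.05 numbered 342 for growth restriction and 538 for sex in preadipocytes, and 95 and 93 in differentiated adipocytes, and none of them belonged to a member. ZBTB16 was below the filter in preadipocytes and was not tested there. The largest member difference by growth restriction was that of HSD11B1 in preadipocytes, 1.18 higher on the log2 scale in growth-restricted than in control cells (SE 0.71, 95% confidence interval -0.32 to 2.69, limma adjusted p = 0.812). NR3C1 was 0.85 lower there (log2 difference -0.85, SE 0.64, interval -2.21 to 0.51), and 3 of the 8 growth-restricted preadipocyte libraries but 1 of the 8 control ones have a low span slope. By sex, KLF15 in preadipocytes had a difference of -0.97 for males against females (SE 0.54, interval -2.12 to 0.18) and SGK1 one of 0.88 (SE 0.56, interval -0.31 to 2.08). Most of these intervals are wide, and equal levels are not shown. DUSP1 had the narrowest interval in preadipocytes, with -0.33 for growth restriction (SE 0.20, -0.75 to 0.08) and -0.12 for males against females (SE 0.20, -0.54 to 0.29). In differentiated adipocytes FKBP5 differed by 0.32 for growth restriction (SE 0.40, interval -0.53 to 1.16) and by 0.25 for sex (SE 0.40, interval -0.60 to 1.09).

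**Figure D4:**
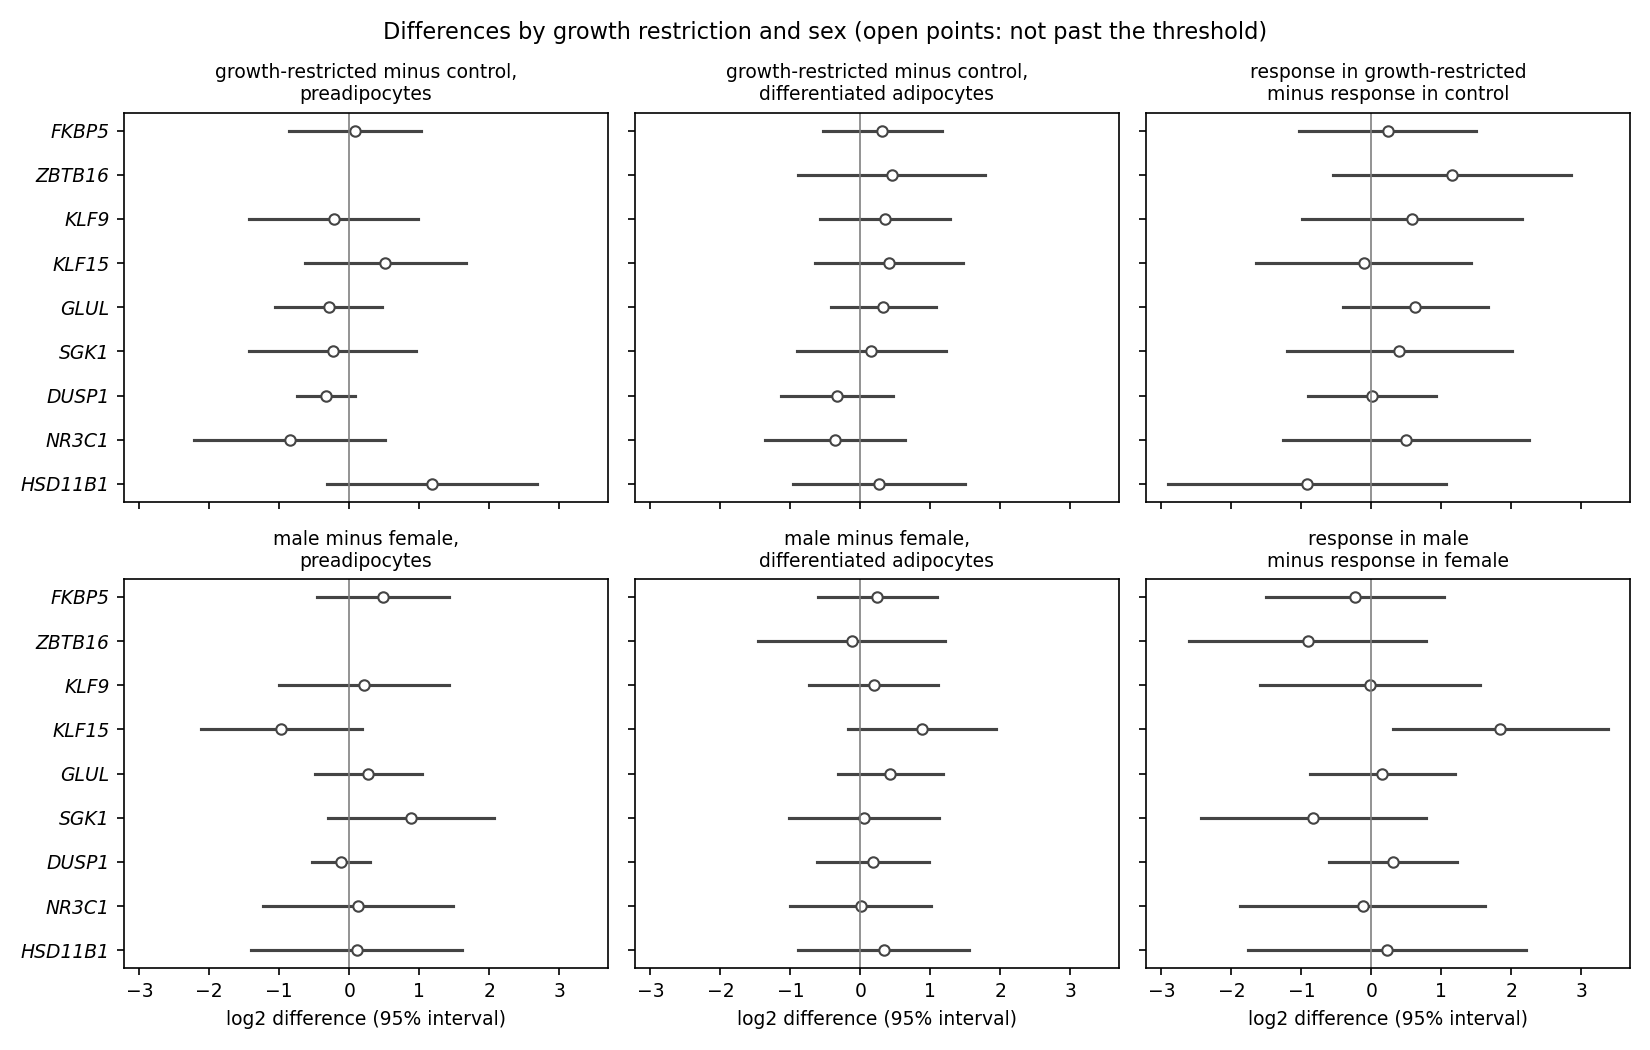
Each panel gives the log2 difference of every tested member with its 95% confidence interval, for growth restriction in the upper row and for sex in the lower row, in preadipocytes, in differentiated adipocytes and for the difference between responses. No member is past the threshold, and KLF15 in the lower right panel (1.85, interval 0.31 to 3.38) is the only interval that does not include 0.

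Other genes of the pathway were read from lists in the fit over all groups. Of 29 further glucocorticoid-induced genes 25 were tested, and 16 of these rose and none fell, against 12.4% and 14.8% of all genes. Their median log2 fold change was 1.39, against 0.04 for all genes. This list too was chosen with earlier results of these data known, so the count is a description. The largest was PDK4, a kinase that holds back glucose oxidation, which went from 0 to 57.1 (median 11.1) in preadipocytes to 42.3 to 2357 (median 480.4) after differentiation (log2 change 5.87, SE 0.59). PER1, a clock gene and direct target of the receptor, rose by 2.81 (SE 0.29), and LPIN1, a phosphatidate phosphatase of triglyceride synthesis, by 2.42 (SE 0.40). PCK1, the gluconeogenic and glyceroneogenic carboxykinase, was at most 2.75 in preadipocytes and reached 42.2 (median 4.61) in differentiated cells. It passed the filter through differentiated libraries alone, so among the 16 it could be called only as risen. PDK4, LPIN1 and PCK1 are also known as genes of the lipid-storing adipocyte. CEBPB and CEBPD, transcription factors of early adipogenesis, were not past the threshold, with log2 changes of 0.01 (SE 0.23) and 0.41 (SE 0.33).

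Of 16 glucocorticoid-repressed genes 11 were tested, of which 4 fell and none rose, against 14.8% and 12.4% of all genes, with a median log2 change of -1.52. The 4 were CCL2, a monocyte chemokine (-2.97, SE 0.43), the cytokines IL6 (-2.78, SE 1.00) and IL1A (-2.63, SE 0.74), and the collagenase MMP1 (-2.60, SE 0.91). CCL2 was 633.4 to 10910 in preadipocytes (median 1993) and 56.2 to 1199 after differentiation (median 255.1). IL6 was low in most libraries, with a median of 10.8 before and 1.00 after. IL1A had a median of 15.6 before and was at most 12.4 after (median 3.08). Whether genes of this list passed the low-value filter through preadipocytes alone was not counted, so these calls too are a description. IL6 lost its call without MC2, MCD3, MFGR3, FC1 or FFGR1 (adjusted p 0.0515 to 0.0584) and MMP1 without MFGR4 (0.0506), and 7 of the list fell without the 9 libraries of low span slope.

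The genes around the receptor were read in the same fit. None of 11 coregulators, such as NCOA1, NCOR1 and EP300, was past the threshold, against 12.4% of all genes that rose and 14.8% that fell. Their median log2 change was 0.17, with standard errors of up to 0.59 (EP300), so unchanged levels are not shown. Of the chaperones that hold the receptor, HSP90AB1 (log2 change -0.42, SE 0.20) and FKBP4 (0.39, SE 0.17), which competes with FKBP5 for the receptor complex, were not past the threshold. NR3C2, the mineralocorticoid receptor, which also binds cortisol, fell by 3.00 on the log2 scale (SE 0.50, limma adjusted p = 3.04e-05), from a median of 29.6 to one of 1.59. Besides HSD11B1, 7 genes of glucocorticoid metabolism were tested, and POR (0.74, SE 0.15) and SRD5A1 (0.69, SE 0.21) rose, the latter not past 1.5-fold without MCD2. HSD11B2, which inactivates cortisol, had a log2 change of 0.71 (SE 0.56), and H6PD, which supplies the cofactor of HSD11B1, of -0.36 (SE 0.32).

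Relatives of the members were read beside all genes, of which 12.4% rose and 14.8% fell, and too few were called to set them apart. Of 9 other KLF genes tested, KLF13 rose (1.90, SE 0.33) while KLF2 (-2.78, SE 0.37) and KLF11 (-1.01, SE 0.23) fell. Of 9 other DUSP genes tested, DUSP4 (4.39, SE 0.50) and DUSP6 (1.73, SE 0.60) rose and DUSP10 fell (-0.60, SE 0.23). DUSP10 lost its call without any 1 of 17 libraries (adjusted p 0.0517 to 0.0769). DUSP6 lost its call without the libraries of low span slope (0.68, SE 0.56, adjusted p = 0.339) and without FC4 (adjusted p = 0.0501). TSC22D2, a relative of TSC22D3, rose by 1.17 (SE 0.30), and SGK3 was not past the threshold (0.21, SE 0.21).

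**Figure D5:**
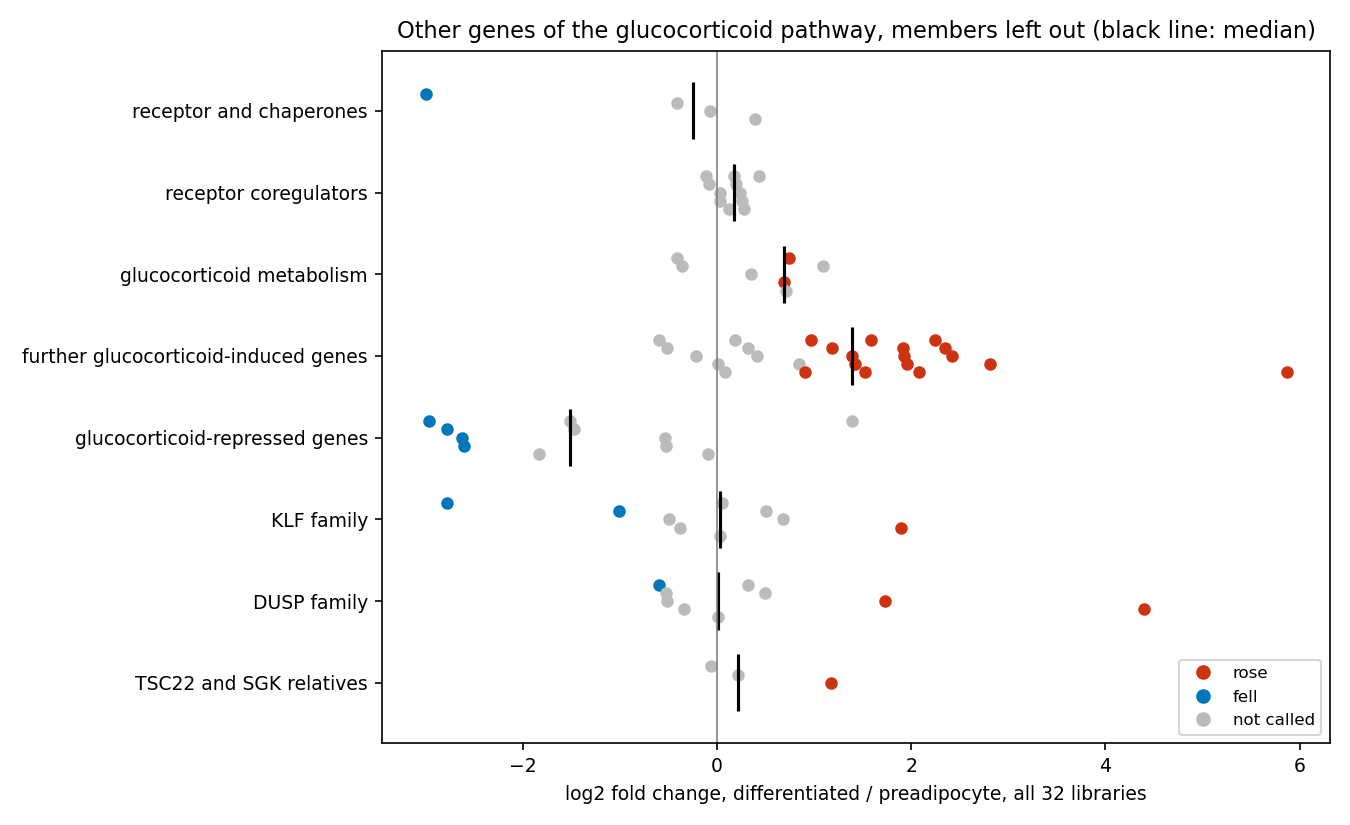
Each point is 1 gene of a pathway list, members left out, at its log2 fold change over all 32 libraries, in red where it rose, in blue where it fell and in grey where it was not past the threshold; the black line is the median of the tested genes of the list. The further induced genes lie mostly to the right (median 1.39), the repressed genes to the left (-1.52) and the coregulators near 0 (0.17).

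The members were also set beside the adipocyte markers library by library. In FCD4 the summed adipocyte markers were 415.5, within the range of the preadipocytes, and FABP4 was 215.4, while FKBP5 was 13800 and ZBTB16 was 778.7, both far above every preadipocyte library. KLF15 in FCD4 was 15.6 and within the preadipocyte range. In MCD4 and FFGRD3, where the markers summed to 185500 and 175400, FKBP5 was 15480 and 8999 and ZBTB16 was 333.4 and 156.9, and both libraries have a low span slope. In MCD3 and FFGRD1, with sums of 83250 and 52590, FKBP5 was 31700 and 23450 and ZBTB16 was 1160 and 1943.

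Markers of adrenal cortex, the steroid-making tissue that lies beside perirenal fat, also moved with differentiation. Of 8 listed, 5 were tested and 4 rose, namely CYP11A1, HSD3B1, CYP17A1 and STAR, beside 12.4% of all genes. CYP11A1, HSD3B1 and CYP17A1 passed the low-value filter through differentiated libraries alone and could be called only as risen, so the count is a description. The summed value over the list was 3.22 to 89.8 in preadipocyte libraries (median 9.91) and 19.8 to 2052 in differentiated libraries (median 80.9). CYP17A1 and HSD3B1 were at 0 in all preadipocyte libraries and had medians of 6.15 and 3.85 after differentiation. MC2R, the receptor for adrenocorticotropic hormone, was above 0 in 1 library and CYP11B1, the last step of cortisol synthesis, in 6. The highest sum, 2052, was in FCD1, where FKBP5 was 21480, beside 21300 in FCD3 with a sum of 45.0. Their part in the rise of the members was not tested.

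The named genes whose pattern over the 32 libraries was most like that of FKBP5 were SORBS2 (Pearson r = 0.95), CPM (0.94), NPR3 (0.94), PTX3 (0.94) and FBXO21 (0.93), among 10610 genes ranked. The points share the 2 stages, and their log2 fold changes were 4.45 for SORBS2, 5.21 for CPM, 6.24 for NPR3, 7.85 for PTX3 and 1.87 for FBXO21. With the 8 group means subtracted the most similar genes were RAD21 (0.91), FMC1-LUC7L2 (0.91), TAF15 (0.90), ZNF570 (0.90) and RABEP1 (0.90), none of which was past the threshold for differentiation. The points share their libraries, and the part of the span slope in this likeness was not tested. Among the members themselves, with group means subtracted, FKBP5 went with KLF9 (0.74) and NR3C1 (0.70), KLF15 went with HSD11B1 (0.70), and ZBTB16 ran opposite to DUSP1 (-0.59). These values over 32 libraries are descriptive.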

How the data were processed

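RNA-seq values of 32 libraries, 4 in each of 8 groups, were read from 1 deposited table. Reads whose mean Phred score was under 34 were dropped by the authors, who quantified the remainder with Salmon against Ensembl transcripts (Oar_rambouillet_v1.0) and normalized the counts with DESeq2. The deposited signal is this normalized count per transcript and library and is not a whole number, so no count model was used. Columns with the authors' own comparisons (fold changes and p-values) were not used.

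Transcripts were summed per gene. The members and lists were chosen with earlier results of these data known. All genes with a summed value of at least 10 in at least 4 libraries of a fit were tested on log2(value + 1) with limma 3.58.1 (R 4.3.3, eBayes with trend), and p-values were adjusted by Benjamini-Hochberg over all of them. Called genes had an adjusted p below 0.05 and a fold change above 1.5. Differentiation was fitted in each group of fetuses on 8 libraries and over all 32 with 8 group means, from which the differences between responses were taken as contrasts. Growth restriction and sex were fitted together on the 16 libraries of a stage. Simulated data were used to test the fits of differentiation in MC and over all groups, and the other comparisons were not simulated. A library's reads were estimated from the spacing of its low values, and statements at 3 reads cover counting error only.

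Named are all members, from each list up to 4 called genes with the largest change and any gene a result turns on, and the 5 genes most like FKBP5. CEBPB, CEBPD, NCOA1, NCOR1, EP300, HSP90AB1, FKBP4, HSD11B2, H6PD and SGK3 were named after their values were seen. Lists of other cell types were also read, beside 12.4% of all genes that rose and 14.8% that fell. For endothelium 1 of 4 tested fell (KDR, lost without MC2, MCD4 or FC4). For leukocytes 1 of 2 rose (CD14) and 1 fell (CD68, lost without any 1 of 16 libraries). For smooth muscle 2 of 3 fell (DES and ACTG2). For preadipocytes or stroma 1 of 5 rose (THY1, log2 change 1.65) and 1 fell (PDGFRB, -0.82), while PDGFRA, COL1A1 and COL3A1 were not past the threshold.

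Same-numbered libraries of the 2 stages deviated together in MC (correlations of 0.16 to 0.61), FC (0.30 to 0.51) and MFGR (0.39 to 0.67), so the numbers were read as pairs there. The exception was MC2, which was more like MCD1 than MCD2. The part of the span slope in this likeness was not tested, and the main fits took the libraries as unpaired. In FFGR the correlations ranged from -0.40 to 0.56, and the libraries share only a number. Alternatives were another pseudocount, quantile normalization, 2 other low-value filters (a looser one and a stricter one), the span slope as a covariate, the highest transcript, the replicate block, a single fit of all groups and leaving out each library. Leaving out the 9 libraries of low span slope was chosen after seeing the data.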

Additional observations from a re-analysis of the deposited data

Results flagged for a closer look

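Single libraries that stood apart from the other 3 of their group by Dixon's test on the log2 scale were looked for in 72 combinations of member and group, of which chance flags about 1 in 20. There were 7. FKBP5 was low in FC replicate 2 (104.9) and in FFGRD replicate 3 (8999), KLF9 was low in FCD replicate 2 (62.99) and NR3C1 was low in FFGRD replicate 3 (58.62), and these 3 libraries have a low span slope. SGK1 was high in MFGRD replicate 4 (1647) and low in FCD replicate 4 (99.71). ZBTB16 was high in FFGR replicate 1 (5.08), which is about 6 reads beside 3 libraries at 0.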

How the results depend on the processing

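The numbers of members called in the comparisons of growth restriction, of sex and of responses were 0 under every alternative run. Over all groups the count of 8 stayed between 6 and 8, but its members changed. Without the libraries of low span slope it was 7. There SGK1 (0.88, limma adjusted p = 0.20) and DUSP1 (0.27, limma adjusted p = 0.32) were no longer called as risen, and NR3C1 was called as fallen (-0.62, limma adjusted p = 0.00446). In the single groups the count moved. With the stricter low-value filter it was 1 in FC and 1 in FFGR, where 11 of 6502 and 31 of 6553 genes were called. With the span slope as a covariate the member count was 5 in FFGR, where 1952 of 11599 genes were called. Without the libraries of low span slope the member count was 1 in MC, 2 in MFGR and 1 in FFGR. There 195 of 11259, 438 of 11207 and 2 of 10984 genes were called. The main fits called 874 genes in MC, 50 in FC, 393 in MFGR and 310 in FFGR. On leaving out 1 library the member count ranged from 1 to 5 in MC, 0 to 2 in FC, 2 to 3 in MFGR and 0 to 2 in FFGR. The number of all genes called then ranged from 311 to 1746, 0 to 95, 77 to 317 and 26 to 259. ZBTB16 failed the filter in a group once a differentiated library was left out, which lowers the member count there. The cause of the other changes was not tested.

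Directions turned for values that were not past the threshold in any setting concerned. DUSP1 in FC was -0.083 without the libraries of low span slope. NR3C1 in MFGR was -0.003 with quantile normalization and -0.0037 without the libraries of low span slope, and NR3C1 in FFGR was 0.21 with the highest transcript. On leaving out 1 library NR3C1 ranged from -1.06 to 0.0897 in FC, -0.54 to 0.58 in MFGR and -0.91 to 0.70 in FFGR, SGK1 in MFGR from -0.39 to 0.82, and NR3C1-202 over all groups from -0.47 to 0.0526. The cause was not tested.

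With the replicate block, which shares only a number in FFGR and over all groups, the count over all groups was 8 and that in FFGR was 2, where GLUL was lost (2.55, SE 0.48, adjusted p = 0.0689) and the number of all genes called went from 310 to 182. Apart from KLF9 in FC, KLF15 in MFGR and GLUL in FFGR, the block changed no member's call. The stricter filter removed KLF15 from the test over all groups, and the highest member difference between male and female responses was then 0.31. With a pseudocount of 0.1 the lowest such difference was -2.20 and the highest 1.98, against -0.91 and 1.85. Depth limits ZBTB16 before differentiation, where a value of a few reads decides a fold change. KLF15 held about 2 reads in MC2 and in MFGR3. Its log2 change over all groups was 2.09 with a pseudocount of 0.1, against 1.998, and 1.82 to 2.13 on leaving out 1 library.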
